A study of Mus musculus with 36 samples.

Results

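The genes described here are the activating arm of the circadian clock and the nuclear receptors that feed back on it: Arntl (which encodes BMAL1), Clock, Npas2, Nr1d1 (REV-ERB alpha), Nr1d2 (REV-ERB beta) and Rora (ROR alpha). They were chosen by gene symbol and make up 6 of the 24066 genes listed under a single symbol in the liver expression tables. All 6 were measured in every library and passed the filter on low values. The livers came from wild-type male C57BL/6JRj mice aged 16 weeks, housed 5 per cage with food at will under 12 h of light and 12 h of dark. IH mice breathed air cycling between 5% and 21% oxygen, 60 cycles per hour, from ZT0 (lights on) to ZT8 each day for 4 weeks. Normoxia (control) mice received matched cycles of air. In each condition, livers of 3 mice were collected at ZT0, ZT4, ZT8, ZT12, ZT16 and ZT20, which gave 12 groups and 36 libraries of polyadenylated RNA. IH was applied in the light, the rest phase of mice, as a model of sleep apnea, and each mouse gave 1 time point, so that no animal was followed over the day.

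In the clock, BMAL1 pairs with CLOCK, or with its close relative NPAS2, and the pair binds E-box sequences to switch on a set of genes that includes the REV-ERB receptors. REV-ERB receptors bind ROR response elements (ROREs), recruit the NCOR-HDAC3 corepressor and silence Arntl, Clock and Npas2, while ROR receptors bind the same elements and activate. Transcripts of the activators and of the REV-ERB receptors therefore peak at opposite times of the day in liver, where both REV-ERB receptors also control genes of lipid metabolism.

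The deposited files name genes by symbol. In the GENCODE annotation of mm10 (GRCm38), Arntl lies on chromosome 7 from 113207465 to 113314126 and Npas2 on chromosome 1 from 39193731 to 39363236, both on the plus strand. Clock lies on chromosome 5 from 76209868 to 76304792, Nr1d1 on chromosome 11 from 98767932 to 98775333 and Nr1d2 on chromosome 14 from 18204054 to 18239127, all on the minus strand. Rora is the longest of the 6, on chromosome 9 from 68653786 to 69388246 on the plus strand. Nr1d1 shares its 3′ end with Thra, a thyroid hormone receptor gene on the opposite strand, over 1075 bases, of which 488 are Nr1d1 exon, and Thra had a mean of 3.59 FPKM over the 36 libraries. The libraries kept strand, but whether strand was used in making the values is not given in the sources used here.

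Promoter windows from RefSeq (GRCm38.p6; 250 bases before to 50 after each start) were found for all 6 genes. They were searched on both strands for the core of the RORE (TAGGTNA), the canonical E-box (CACGTG), the E′-box (CACGTT), the nuclear receptor core AGGTCA and the core that hypoxia-inducible factors bind (ACGTG), the last of which overlaps both E-box motifs. TAGGTNA was present in the windows of Arntl alone among the 6 genes and in 9.51% of the 27025 genes with a window. It occurred at 2 places, near the start of the gene, shown here because the level of Arntl is set against that of the REV-ERB receptors below. CACGTG was in none of the 6 (8.09% of all genes) and CACGTT was in Nr1d1 (5.44% of all genes). AGGTCA was in Arntl, where it is part of the second RORE match, Clock and Nr1d2 (18.1% of all genes), and ACGTG in Npas2, Nr1d1 and Rora (21.8% of all genes). In the following sequences, which are in the direction of the gene, capitals mark the match. The Arntl matches are on the gene's own strand and the Nr1d1 match reads CACGTT on the other strand. They lie at chr7:113207485-113207514 and chr7:113207530-113207559 on the plus strand and at chr11:98775388-98775417 on the minus strand. A match is a description of these letters and not a bound site.
Arntl RORE core, the first: ggagcggattggtcggaaagTAGGTTAgtg
Arntl RORE core, the second: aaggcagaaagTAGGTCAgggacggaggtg
Nr1d1 E′-box: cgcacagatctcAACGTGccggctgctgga

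Expression was given as FPKM, fragment numbers set against transcript length and library total, so levels can be compared between genes per length. The files hold no counts, and the depth of each library is unknown. Total FPKM lay between 561964 and 626371 in 35 of the 36 libraries and was 808274 in normoxia ZT12 replicate 2. The same library, normoxia ZT16 replicate 3 and IH ZT0 replicate 2 had more than 10000 FPKM of Saa1, an acute phase gene whose median was 76.5 FPKM. Results that rest on these 3 libraries are given with and without them. All 6 hepatocyte markers (such as Alb and Hnf4a) were above 1 FPKM, with summed levels of 35918 to 62633 FPKM in normoxia and 38268 to 53148 FPKM under IH. Summed markers of Kupffer cells and macrophages ranged from 19.0 to 162 FPKM in normoxia and from 17.1 to 45.5 FPKM under IH. The ranges of summed endothelial, stellate, cholangiocyte, leukocyte and erythroid markers overlapped between the conditions too. In liver pieces, fewer cells of a type and less RNA per cell cannot be told apart.

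**Figure D1:**
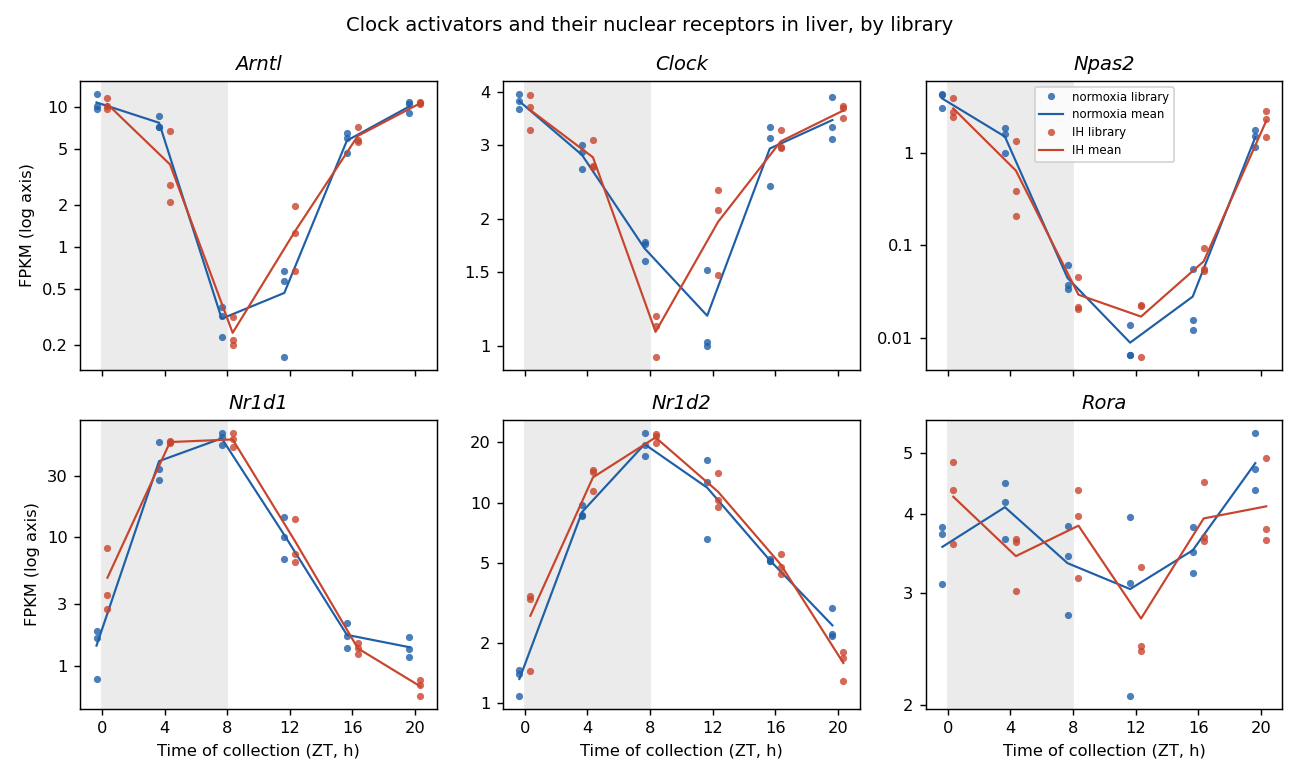
FPKM (log axis) of the 6 genes against time of collection in h after lights on, with points for the 36 libraries, slightly offset by condition, and lines for the means of 3 libraries in normoxia (blue) and IH (red); grey marks the hours of IH exposure, ZT0 to ZT8. Arntl, Clock and Npas2 were lowest at ZT8 or ZT12, and Nr1d1 and Nr1d2 were highest at ZT8. By ZT12 the Nr1d1 mean had fallen from 58.8 to 10.4 FPKM in normoxia and from 57.7 to 9.26 FPKM under IH. Rora stayed between 2.07 and 5.37 FPKM.

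Arntl, the obligate partner in the activating pair, was highest at ZT20 and ZT0 in both conditions. In normoxia it measured 12.3, 9.71 and 10.2 FPKM at ZT0 and 9.01, 10.8 and 10.4 FPKM at ZT20, and at ZT8 it measured 0.372, 0.318 and 0.228 FPKM. Under IH it measured 9.60, 10.1 and 11.6 FPKM at ZT0, 10.8, 10.6 and 10.4 FPKM at ZT20, and 0.216, 0.314 and 0.197 FPKM at ZT8. From the lowest to the highest group mean this was 35.0-fold in normoxia and 43.7-fold under IH, and the ZT0 and ZT20 libraries overlapped in each condition. The conditions parted at ZT4. Normoxia libraries measured 8.64, 7.19 and 7.21 FPKM there, and IH libraries 6.75, 2.78 and 2.08 FPKM. Every IH library was below every normoxia library, and IH replicate 1 was closer to normoxia than to the other two IH libraries. At ZT12, on the way up, normoxia libraries measured 0.164, 0.568 and 0.671 FPKM and IH libraries 0.670, 1.96 and 1.26 FPKM, so that the lowest IH library only just overlapped the highest normoxia library. At ZT16 the libraries overlapped, with means of 5.73 ± 0.931 FPKM in normoxia and 6.19 ± 0.872 FPKM under IH (SD, n = 3).

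Clock, the partner of BMAL1 and an acetyltransferase, followed the same course over a smaller range. It was highest at ZT0, with 3.81 ± 0.157 FPKM in normoxia and 3.63 ± 0.346 FPKM under IH (SD, n = 3), and its highest group mean was 3.23-fold its lowest in normoxia and 3.36-fold under IH. Its lowest time point differed between conditions. At ZT8, normoxia libraries measured 1.77, 1.75 and 1.60 FPKM and IH libraries 0.945, 1.18 and 1.12 FPKM, with no overlap. At ZT12, normoxia libraries measured 1.00, 1.02 and 1.52 FPKM and IH libraries 1.47, 2.34 and 2.11 FPKM. One normoxia library there, replicate 3, lay above the lowest IH library. In normoxia the ZT8 and ZT12 libraries did not overlap and ZT12 was the lower, whereas under IH they did not overlap and ZT8 was the lower.

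Npas2, which can stand in for Clock, had the widest range. In normoxia it measured 4.26, 3.05 and 4.33 FPKM at ZT0 and under IH 2.75, 2.45 and 3.90 FPKM. At ZT12 it was down to 0.00658, 0.00647 and 0.0136 FPKM in normoxia and 0.0221, 0.0227 and 0.00628 FPKM under IH. Values this low rest on very few fragments, so the ratio of the highest to the lowest mean, 436 in normoxia and 178 under IH, is not precise. At ZT4, normoxia libraries measured 1.01, 1.89 and 1.62 FPKM and IH libraries 1.34, 0.393 and 0.209 FPKM. IH replicate 1, which also had the most Arntl of the 3, was within the normoxia range and the other two were below it. At ZT20 the order of the means was the other way, 1.48 ± 0.313 FPKM in normoxia and 2.23 ± 0.685 FPKM under IH (SD, n = 3), with overlap. Per length, Npas2 exceeded Clock in 2 libraries, normoxia ZT0 replicates 1 and 3, and was below it in all others.

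Nr1d1, the heme-binding repressor of Arntl, was the most abundant of the 6 at its peak. At ZT8 it measured 51.8, 64.3 and 60.4 FPKM in normoxia and 58.0, 64.5 and 50.6 FPKM under IH. The conditions overlapped there, and on the way up the mean was higher under IH at ZT0 and at ZT4. At ZT0, normoxia libraries measured 1.64, 0.787 and 1.88 FPKM and IH libraries 3.56, 8.24 and 2.74 FPKM, with no overlap. The highest of these, IH replicate 2, is among the 3 libraries with high Saa1. At ZT4, IH libraries measured 55.0, 54.6 and 55.6 FPKM, close to their ZT8 level, and normoxia libraries 55.2, 34.2 and 28.0 FPKM. Only normoxia replicate 1 reached the IH level, so that the conditions overlapped at ZT4 too. At ZT20, IH libraries measured 0.710, 0.585 and 0.776 FPKM and normoxia libraries 1.67, 1.17 and 1.35 FPKM, so that Nr1d1 was lower under IH in every library 4 h before the time point at which it was higher. The highest group mean was 42.2-fold the lowest in normoxia and 83.6-fold under IH.

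Nr1d2, which shares its targets with Nr1d1, peaked at ZT8 with 17.0, 19.5 and 22.2 FPKM in normoxia and 21.9, 21.6 and 19.9 FPKM under IH. At ZT4 normoxia libraries measured 8.53, 9.69 and 8.67 FPKM and IH libraries 11.4, 14.2 and 14.5 FPKM, with no overlap. At ZT0 the IH values, 1.45, 3.43 and 3.29 FPKM, overlapped the normoxia values, 1.40, 1.09 and 1.46 FPKM, through IH replicate 1 alone. At ZT20 all IH libraries, at 1.29, 1.79 and 1.67 FPKM, were below the normoxia libraries, at 2.96, 2.15 and 2.21 FPKM. The lowest group mean of Nr1d2 was at ZT0 in normoxia and at ZT20 under IH.

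Rora, the activating receptor, varied little over the day. Its group means ran from 3.05 ± 0.944 FPKM at ZT12 to 4.82 ± 0.509 FPKM at ZT20 in normoxia, and from 2.74 ± 0.490 FPKM at ZT12 to 4.26 ± 0.632 FPKM at ZT0 under IH (SD, n = 3). That was 1.58-fold and 1.56-fold. Libraries of neighbouring time points in the order of the means overlapped throughout, in both conditions, and the conditions overlapped at every time point.

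The question of whether these genes kept a 24-h rhythm was addressed with a cosine fit to log2(FPKM + 1) within each condition. By this test, 5 of the 6 genes were rhythmic in normoxia and the same 5 under IH (nominal P of 0.01 or less), all but Rora. Over all genes, 20.0% were called in normoxia, 39.9% under IH and 15.5% in both. Each condition was fitted on its own, so these shares also depend on the spread within each condition. With 1 spread shared by both conditions, 3762 genes were called in normoxia and 4166 under IH, in place of 2648 and 5273. Rora missed the nominal threshold in both, with a limma nominal P of 0.061 in normoxia and 0.051 under IH (adjusted p = 0.16 and 0.091). With 1 library left out its nominal P was at lowest 0.017 and 0.012. Among 13215 genes ranked by P, Nr1d1 was at rank 1 under IH and rank 16 in normoxia, Nr1d2 at ranks 6 and 27, Arntl at ranks 28 and 33, Npas2 at ranks 208 and 8, and Clock at ranks 357 and 92. The fitted amplitude of Nr1d1, from the middle to the peak on the log2 scale, was 2.59 in normoxia and 2.82 under IH, rank 2 and rank 3 of all genes. That of Arntl was 1.76 and 1.65, of Nr1d2 1.46 and 1.55, of Npas2 1.17 and 1.07, and of Clock 0.54 and 0.53. Amplitude differences ran from -0.11 (SE 0.21) for Arntl to 0.22 (SE 0.27) for Nr1d1 and none was called by the Wald test (0% of 2047 genes), nor was any past an unadjusted p of 0.05.

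Fitted peaks in normoxia fell at ZT7.31 for Nr1d1, ZT9.31 for Nr1d2, ZT22.2 for Arntl, ZT22.4 for Clock and, just after lights on, ZT0.025 for Npas2. Under IH they fell at ZT6.51, ZT8.34, ZT21.1, ZT21.2 and ZT22.9. The difference, IH minus normoxia, was -0.80 h (SE 0.38) for Nr1d1, -0.97 h (SE 0.42) for Nr1d2, -1.11 h (SE 0.47) for Arntl, -1.28 h (SE 0.65) for Clock and -1.14 h (SE 0.52) for Npas2. All 5 fitted peaks were earlier under IH, and 4 of the 5, all but Clock, had an unadjusted p under 0.05. None passed adjustment over the 2047 genes rhythmic in both conditions (Wald test on the limma fit, adjusted p from 0.30 to 0.36, 0% called, 286 genes at an unadjusted p under 0.05). Across the other alternatives to the processing the adjusted p of these 5 ran from 0.0886 to 0.737. An earlier peak was common: 71.1% of those genes had one, with a median difference of -0.65 h. The fitted spacing between the genes was close in both conditions, with no test made. Nr1d1 peaked 9.06 h after Arntl in normoxia and 9.38 h after it under IH, and Nr1d2 followed Nr1d1 by 2.00 h and 1.83 h. The test of the whole cosine (phase and amplitude together) gave an adjusted p of 0.92 for these 5 genes and 1.00 for Rora, with 0% of genes called and no member at an unadjusted p under 0.05. With samples 4 h apart, these differences are below the spacing of the time points.

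**Figure D2:**
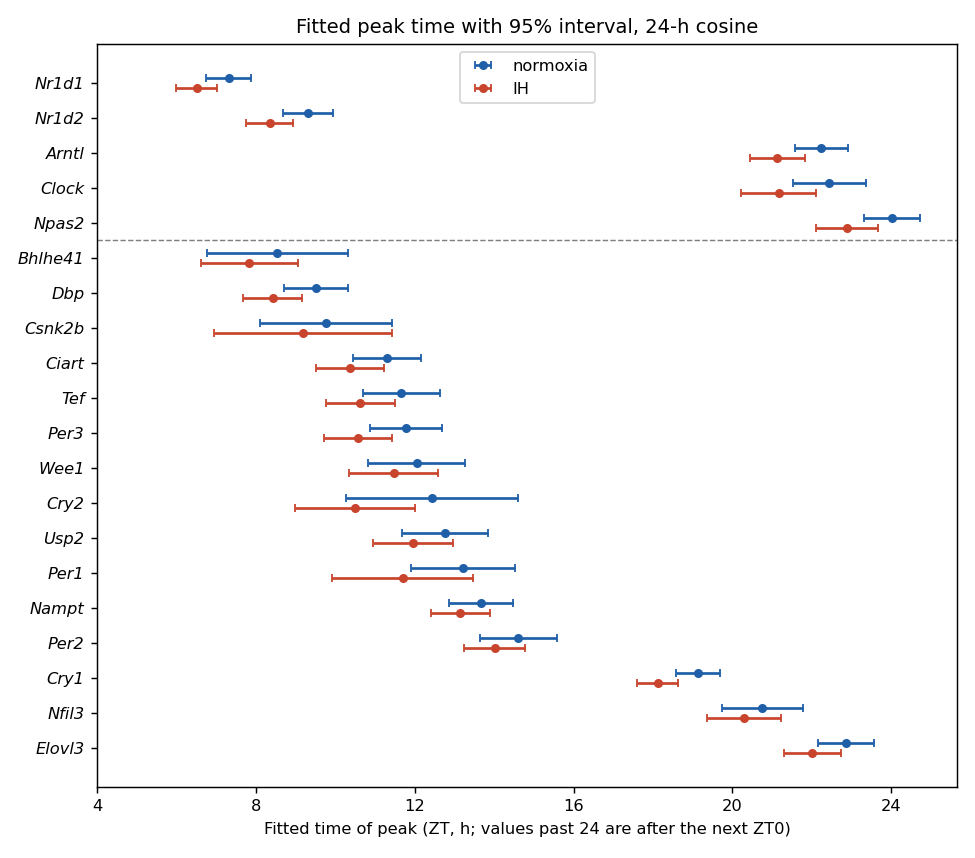
Fitted time of peak in h after lights on, with 95% intervals, for the 5 rhythmic genes (above the dashed line) and for the 15 genes of the clock lists that were rhythmic in both conditions, in normoxia (blue) and IH (red). All 5 members peaked earlier under IH, by 0.80 h to 1.28 h, and none of these differences passed adjustment over all genes tested.

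Levels were then compared at each time point, on log2(FPKM + 1) with 1 spread estimated from all 36 libraries. At ZT4, Arntl was lower under IH by 0.95 on the log2 scale (difference -0.95, 95% interval -1.39 to -0.51, adjusted p = 0.028), which was 1 of the 6 genes called against 1.16% of all genes. The call was lost when any of the 3 normoxia ZT4 libraries or either of IH ZT4 replicates 2 and 3 was left out, and the difference ran from -1.34 without IH ZT4 replicate 1 to -0.68 without IH ZT4 replicate 3. It was also lost with a pseudocount of 0.1 FPKM (adjusted p = 0.086), after rescaling every library to the same total (0.062) and with the 6 ZT4 libraries alone (0.12). Saa1 also differed at ZT4, with 2357 and 2435 FPKM in normoxia replicates 1 and 3, 57.4 FPKM in normoxia replicate 2 and 30.6 to 72.1 FPKM under IH. Normoxia replicate 2 had 7.19 FPKM of Arntl, above all 3 IH libraries. Without normoxia replicates 1 and 3 the difference of Arntl was -0.87 and no longer called (adjusted p = 0.48 by limma, with the lone normoxia library assumed to vary like the other groups). Of all genes, 7 were then called in place of 153. Npas2 at ZT4 had a difference of -0.65 (SE 0.17), which missed the threshold (adjusted p = 0.054). Nr1d1 and Nr1d2 had differences of 0.54 (SE 0.27, adjusted p = 0.33) and 0.52 (SE 0.21, adjusted p = 0.20) there. The interval of Clock at ZT4 ran from -0.23 to 0.20 around a difference of -0.01.

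At ZT12, Clock was higher under IH by 0.44 (95% interval 0.23 to 0.65, adjusted p = 0.046), 1 of the 6 genes against 0.772% of all genes. This call stood close to the threshold: it was lost in 25 of the 36 fits that left out 1 library. It was also lost with the replicate number as a block (adjusted p = 0.055), and at ZT12 the 3 same-numbered pairs of libraries deviated together from their group means (r from 0.14 to 0.29). Without normoxia ZT12 replicate 2, the library with the high FPKM sum and high Saa1, the difference was 0.39 (adjusted p = 0.18), and without all 3 high-Saa1 libraries 0.39 (adjusted p = 0.11). Arntl at ZT12 had a difference of the same sign that did not pass the test (0.63, SE 0.21, adjusted p = 0.093).

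No member was called at ZT0, ZT8, ZT16 or ZT20 by limma (0%, 0.00757%, 0.00757% and 0% of all genes). At these times 1000, 627, 436 and 627 of 13215 genes had an unadjusted p under 0.05, and 2, 1, 0 and 1 of the 6 members. The largest of these differences was that of Nr1d1 at ZT0, 1.18 (95% interval 0.62 to 1.74, adjusted p = 0.18), with means of 4.85 FPKM under IH and 1.44 FPKM in normoxia. It was 0.79 without the high-Saa1 library IH ZT0 replicate 2, and passed the test only without IH ZT0 replicate 3 (1.44, adjusted p = 0.029). Clock at ZT8 had a difference of -0.38 (SE 0.10, adjusted p = 0.67). At ZT20, Npas2 had a difference of 0.36, Nr1d1 of -0.50 and Nr1d2 of -0.41, all at an adjusted p of 1.

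**Figure D3:**
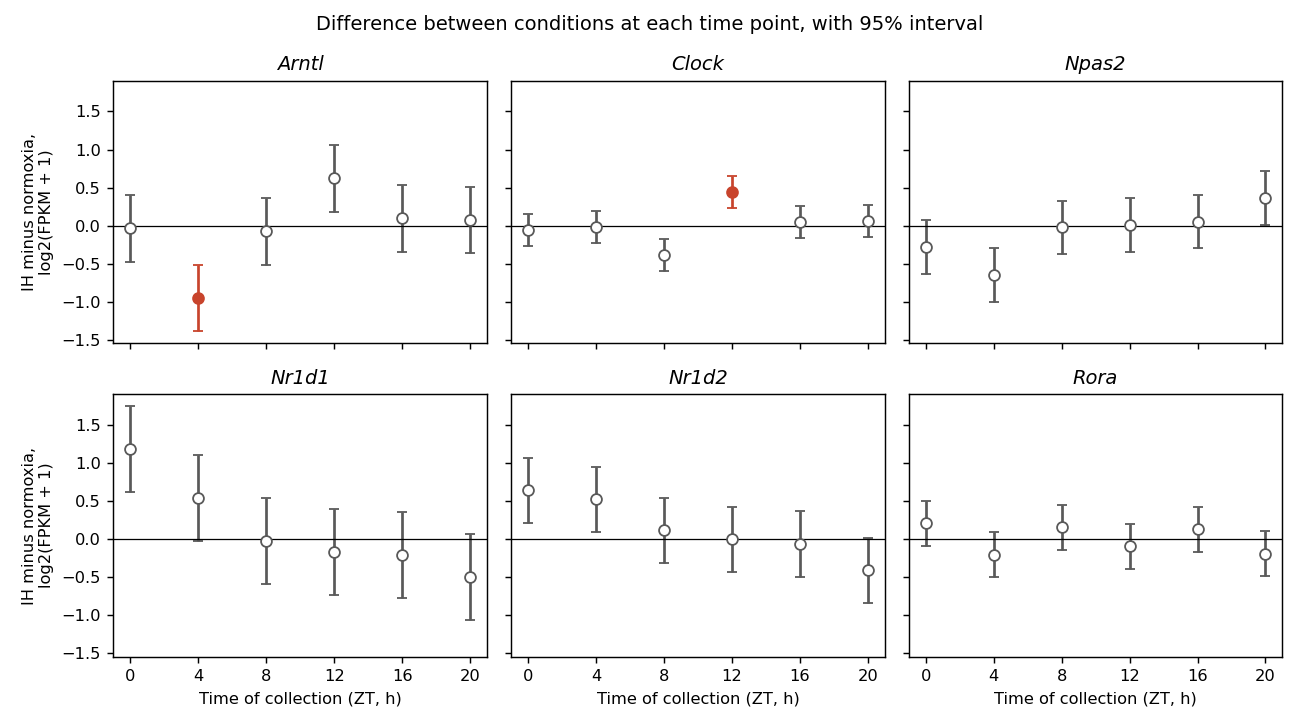
Difference between IH and normoxia in log2(FPKM + 1) at each time of collection (h after lights on), with 95% intervals, for the 6 genes; filled red points passed the adjusted p of 0.05. The filled points are Arntl at ZT4 and Clock at ZT12, and the differences of Nr1d1 run from 1.18 at ZT0 to -0.50 at ZT20.

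Of the 36 gene and time point combinations, the IH and normoxia libraries did not overlap in 6. They were Nr1d1 at ZT0 (1 of 6 genes, against 10.8% of all genes), Arntl and Nr1d2 at ZT4 (2 of 6, against 34.5%), Clock at ZT8 (1 of 6, against 18.1%) and Nr1d1 and Nr1d2 at ZT20 (2 of 6, against 16.0%). None did so at ZT12 or ZT16, against 13.1% and 13.8% of all genes. Averaged over the day, the 6 genes differed little between conditions: differences ran from -0.09 (SE 0.07) for Npas2 to 0.14 (SE 0.11) for Nr1d1, none was called or had an unadjusted p under 0.05, and 0.651% of all genes were called. The test that the difference depends on the time point had unadjusted p under 0.05 for 5 of the 6, all but Rora. Over all genes, 1876 of 13215 had this. The adjusted p of the members ran from 0.085 for Clock to 0.24 for Nr1d2 and was 0.53 for Rora. None was called, against 0.136% of all genes, and 4 of the 6 were called when noisier libraries were given less weight, against 10.2% of all genes in that setting.

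Arntl and Nr1d1 traced a loop around the day, since Nr1d1 climbed while Arntl was still high and fell before Arntl recovered. The ratio of Nr1d1 to Arntl in the same library, as log2, is free of the library's scale. At ZT0 it was -2.90, -3.63 and -2.44 in normoxia and -1.43, -0.29 and -2.08 under IH. At ZT4 it was 2.68, 2.25 and 1.96 in normoxia and 3.03, 4.30 and 4.74 under IH. At both times every IH library was above every normoxia library. The ratio of -0.29 at ZT0 is that of IH replicate 2, a high-Saa1 library. Without it the IH ratios there, -1.43 and -2.08, were still above all in normoxia. At ZT20 the order was the reverse, with -2.43, -3.21 and -2.95 in normoxia and -3.93, -4.18 and -3.75 under IH. At ZT8 the conditions overlapped, from 7.12 to 8.05 in normoxia and from 7.68 to 8.07 under IH. At ZT12 it was 6.46, 3.59 and 3.90 in normoxia and 4.38, 1.93 and 2.34 under IH, lower on average under IH with overlap. At ZT16 it ran from -2.11 to -1.47 in normoxia and from -2.27 to -2.04 under IH. The overlap there was through normoxia replicate 3 (-2.11), a high-Saa1 library. For single genes, 10.8% of all genes did not overlap at ZT0, 34.5% at ZT4 and 16.0% at ZT20. How often ratios of other gene pairs did not overlap was not counted.

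**Figure D4:**
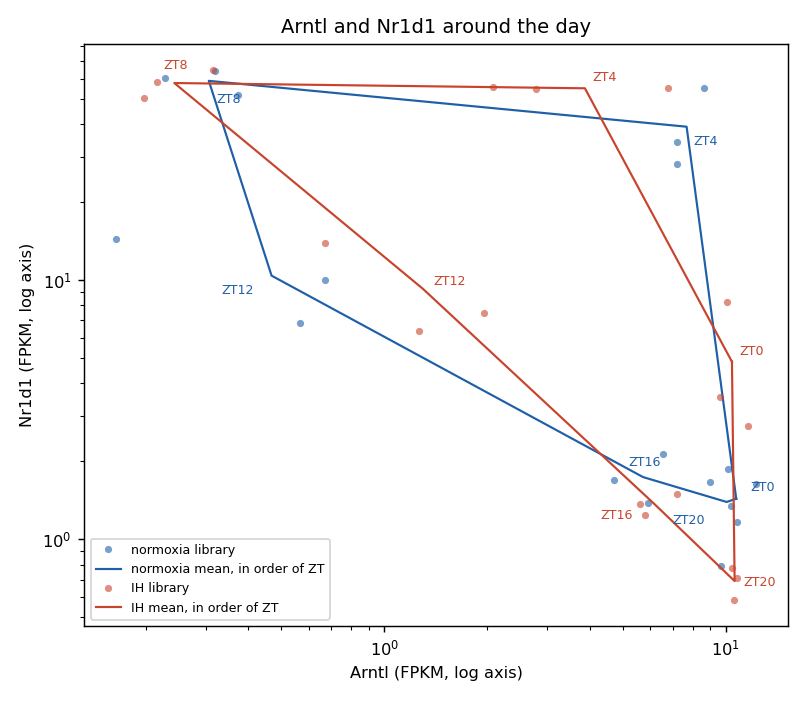
Nr1d1 against Arntl, both in FPKM on log axes, with points for libraries and lines joining the means of 3 libraries in order of time of collection, in normoxia (blue) and IH (red). At ZT4 the IH mean lies to the left of the normoxia mean, at 3.87 against 7.68 FPKM of Arntl, and at ZT0 above it, at 4.85 against 1.44 FPKM of Nr1d1.

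Genes that BMAL1 and CLOCK switch on through E-boxes were taken from a list of 14: Per1, Per2, Per3, Cry1, Cry2, Dbp, Tef, Hlf, Bhlhe40, Bhlhe41, Ciart, Nampt, Wee1 and Usp2. Of these, 12 were rhythmic in normoxia and 14 under IH, against 20.0% and 39.9% of all genes. All 12 that were rhythmic in both had an earlier fitted peak under IH, with a median of -0.97 h, against 71.1% of all genes rhythmic in both and their median of -0.65 h. None of these differences was called. At ZT4, when Arntl was lower, 3 of the 14 rose under IH and none fell, against 0.885% and 0.272% of all genes. The median difference over the list was 0.74, against 0.07 over all genes. The list was chosen with earlier results of these data known, so this comparison is a description and not an independent test. Dbp, a PAR bZIP factor of liver output genes, measured 3.90, 2.77 and 4.52 FPKM in normoxia and 8.78, 30.5 and 37.1 FPKM under IH (difference 2.28, SE 0.44, adjusted p = 0.0099). Its relative Tef measured 9.56, 8.38 and 9.20 FPKM in normoxia and 13.5, 21.4 and 25.2 FPKM under IH (difference 1.03, SE 0.26, adjusted p = 0.045), a call lost in 19 of the 36 fits that left out 1 library. Bhlhe41, a repressor that competes for E-boxes, measured 0.159, 0.261 and 0.243 FPKM in normoxia and 0.607, 0.916 and 0.656 FPKM under IH (difference 0.50, SE 0.10, adjusted p = 0.011). IH replicate 1, the library with the most Arntl and Npas2 under IH at that time, was the closest to normoxia for Dbp, Tef and Bhlhe41. For Bhlhe41, IH replicate 3 was near it, at 0.656 against 0.607 FPKM. None of the 14 genes was called at ZT4 without IH ZT4 replicate 2, or without normoxia ZT4 replicates 1 and 3, where the difference of Dbp was 2.59 (adjusted p = 0.13), that of Tef 1.12 (0.41) and that of Bhlhe41 0.45 (0.35). With less weight on noisier libraries 11 were called, against 24.6% of all genes. No member of the list was called at another time point, and Bhlhe41 alone was called over all time points (difference 0.20, SE 0.04, adjusted p = 0.015).

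Genes with REV-ERB and ROR response elements or de-repressed without REV-ERB (Cry1, which is also in the list above, Nfil3, Elovl3, Apoc3, Fabp7 and Lpl) gave 3 of 6 rhythmic genes in normoxia and 5 of 6 under IH, against 20.0% and 39.9% of all genes. The 3 rhythmic in both, Cry1, Nfil3 and Elovl3, peaked between ZT19.1 and ZT22.9 in normoxia. All 3 had earlier fitted peaks under IH, with a median of -0.85 h. Over all genes rhythmic in both, 71.1% had an earlier peak, with a median of -0.65 h. None of the 6 was called in any comparison of conditions. At ZT4 the median of this list was -0.29, against 0.07 over all genes. There, 5 of the 6 differences were negative, against 31.9% of all genes. This list too was chosen with earlier results of these data known. Cry1 peaked 3.12 h before Arntl in normoxia and 3.02 h before it under IH. Of the other family members, Arntl2 was rhythmic in normoxia and not called under IH, and Rorb did not pass the filter. The fitted amplitude of Arntl2 was small in both, 0.066 in normoxia and 0.041 under IH on the log2 scale. In FPKM it was 0.058 and 0.036. The amplitude difference was -0.025 (SE 0.035) and was not tested, since Arntl2 was not rhythmic in both conditions. In the comparisons of conditions that were run, Arntl2 was not called.

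None of 5 genes of the REV-ERB corepressor (Ncor1, Hdac3, Tbl1x, Tbl1xr1 and Gps2) was called rhythmic in normoxia. All but Tbl1x were under IH, against 20.0% and 39.9% of all genes. Each condition was fitted on its own, so a call in 1 condition alone is not a difference in rhythm. Amplitude differences, IH minus normoxia, were -0.047 (SE 0.095) for Ncor1 and 0.004 (SE 0.056) for Hdac3. They were 0.033 (SE 0.10) for Tbl1xr1 and 0.14 (SE 0.070) for Gps2. These amplitude differences were not tested, since none of these genes was rhythmic in both conditions. In the comparisons of conditions that were run, none of the 5 genes was called. The closest to a call was Gps2, a subunit of the NCOR complex, at ZT4 (difference 0.39, SE 0.10, adjusted p = 0.053). Of 16 coactivators and enzymes that modify BMAL1, CLOCK or REV-ERB proteins, 1 was rhythmic in normoxia and 3 under IH, below those shares of all genes. Csnk2b, a subunit of casein kinase 2, was rhythmic in both. None of the 16 was called between conditions at any time point.

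Likeness to each member was described as Pearson r of log2(FPKM + 1) over the 36 libraries, among the 9807 genes that averaged 1 FPKM or more. The libraries share their time points, so any pair of genes with strong rhythms and near or opposite peaks has a high r. Arntl was most like Lgalsl (0.97), Tubb2a (0.97) and Tubb2b (0.97), and most opposite to Dbp (-0.94), Igfbp4 (-0.94) and Ciart (-0.93). Clock was most like Slc30a10 (0.97), Dtx4 (0.96) and Caprin1 (0.95), and most opposite to Igfbp4 (-0.91), 1810058I24Rik (-0.91) and Gnl1 (-0.89). Npas2 was most like Commd7 (0.91), Grk5 (0.91) and B3gat3 (0.90), and most opposite to Tef (-0.91), Cyp2a5 (-0.89) and Igfbp4 (-0.88).

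Nr1d1 was most like Rcl1 (0.92), Slc38a3 (0.92) and Gpcpd1 (0.90), and most opposite to Cry1 (-0.95), Agpat2 (-0.91) and Lonrf3 (-0.90). Nr1d2 was most like Dbp (0.93), Erlec1 (0.90) and Rdh9 (0.90), and among its most opposite were Ppard (-0.92) and Pnkd (-0.92). Rora had weaker partners, with Zfand4 (0.82), Peli1 (0.75) and Casp9 (0.74) the most alike and Gm11974 (-0.73), Rrp7a (-0.70) and Rrp9 (-0.70) the most opposite. Among the members, Arntl and Clock had r = 0.94 and Nr1d1 and Nr1d2 r = 0.87. Arntl had r = -0.87 with Nr1d2 and r = -0.66 with Nr1d1. Rora had r = 0.49 with Arntl and r = -0.17 with Nr1d1.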

How the data were processed

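Libraries were strand-specific, made from polyadenylated liver RNA and sequenced as 2 × 100 bp reads on a NovaSeq. Per the labels, the authors aligned the reads to mm10 and made the deposited FPKM per library with Cufflinks; the submitters' processing notes name TopHat2 2.1.1 and Cufflinks 2.2.1. The values come in 1 table for each condition. Columns carry identical names in both, so the names of the tables gave the condition. No columns were left unused. Of 24346 symbols, 280 on several rows were left out. Of 18 Npas2 values below 0.1 FPKM, 8 were within 0.15 of a whole multiple of 1 fitted step (0.00685 FPKM), common to all libraries. The FPKM of 1 fragment depends on the library total, so a common step cannot show whole reads. The depth is unknown, and no counting error can be given.

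Values were analysed as log2(FPKM + 1) with limma 3.58.1 in R 4.3.3, with an intensity trend, for the 13215 genes that averaged 0.1 FPKM or more. Fold changes on this scale understate the change of low genes. Rhythm was a moderated F test of a 24-h cosine within a condition (nominal P of 0.01); the BIO_CYCLE test of the study was not run here. Phase and amplitude were compared by Wald tests (delta method), and levels by contrasts of 12 group means, two-sided. Benjamini-Hochberg adjusted p under 0.05 was called. The 6 members were named for every test, with the 3 genes most like and most unlike each, and at most 4 per list. A few genes that the lists or the naming rule take in are not reported here, and list counts leave them out. Members and lists were chosen with earlier results of these data known. Figures were drawn with matplotlib 3.10.9. The tests were run on simulated data with independent noise for each gene and a larger phase shift than those seen here. No effect was shared by the genes of a library, so that run cannot show how the tests behave with outlying libraries. Alternatives were the pseudocount, the filter, 3 scalings, repeated symbols summed, other rhythm rules, linear FPKM, sample weights, time points alone, a replicate block and each library left out, and, added after seeing the data, the 3 high-Saa1 libraries left out and, for ZT4, 2 normoxia libraries of raised Saa1.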

Additional observations from a re-analysis of the deposited data

Results flagged for a closer look

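Nr1d1 was higher under IH than in normoxia in every library at ZT0 and lower in every library at ZT20. The difference at ZT0 exceeded that at ZT20 by 1.68 on the log2(FPKM + 1) scale, and by 1.29 without the 3 high-Saa1 libraries, among them IH ZT0 replicate 2. Nr1d2 was higher in every IH library at ZT4 and lower in every IH library at ZT20, and the difference at ZT4 exceeded that at ZT20 by 0.93, with none of those 3 libraries at either time. These pairs of time points were chosen after the values were seen and the pairs themselves were not tested. The test over all 6 time points gave an adjusted p of 0.13 for Nr1d1 and 0.24 for Nr1d2.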

How the results depend on the processing

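The 5 rhythmic members in each condition remained called under every alternative run, and all 5 phase differences kept their sign. The calls at ZT4 and ZT12 did not hold in this way. At ZT4, the number of members called (1, Arntl) was 2 with a mean of 1 FPKM or more, median of ratios or quantile normalization, 3 with sample weights or without the 3 high-Saa1 libraries, and 0 after rescaling to equal totals and without the 2 normoxia ZT4 libraries of raised Saa1. It was 1 with a pseudocount of 0.1 (Npas2) and with the 6 libraries alone (Nr1d2), and Arntl was not called. Where it was 3, more of all genes were called too (24.6% with sample weights). At ZT12 it was 0 in place of 1 (Clock) without the filter, after rescaling or without the 3 high-Saa1 libraries. The same held with the replicate block, sample weights or the 6 libraries alone. With sample weights, 1 member was called at ZT8 and 4 in the time point test (10.2% of all genes). With 1 library left out, members called numbered 0 to 1 at ZT0 and 0 to 2 at ZT4, ZT12 and in the time point test. The causes were not tested.

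Small differences between IH and normoxia, none of which passed the test, changed sign between settings (log2 units, IH minus normoxia). Clock at ZT4 (-0.015) was 0.027 after rescaling to equal totals. Over all time points, Arntl (-0.043) was 0.016 with a pseudocount of 0.1. Clock over all time points (0.017) was -0.012 with median of ratios, -0.0095 with quantile normalization and -0.015 with sample weights, and Rora (0.00012) was -0.034, -0.028 and -0.057 with these and -0.052 without the high-Saa1 libraries. The amplitude difference of Clock (-0.0078) was 0.013, 0.024 and 0.097 with the same 3 settings and 0.042 without the high-Saa1 libraries, where that of Nr1d2 (0.087) was -0.0099. Clock at ZT16 (0.049) was -0.032 with sample weights and -0.053 without the high-Saa1 libraries, and Clock at ZT0 (-0.057) was 0.0018 without them. With 1 library left out, Arntl ran from -0.11 to 0.058 at ZT0, from -0.014 to 0.19 at ZT16 and from -0.11 to 0.0024 over all time points. Clock ran from -0.11 to 0.0018 at ZT0, from -0.067 to 0.015 at ZT4, from -0.053 to 0.12 at ZT16 and from -0.054 to 0.030 in amplitude. Nr1d1 ran from -0.12 to 0.062 at ZT8 and from -0.48 to 0.074 at ZT12, and the amplitude of Nr1d2 from -0.017 to 0.15. Rora ran from -0.28 to 0.064 at ZT12 and from -0.031 to 0.027 over all time points.

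Over all genes, the 153 calls at ZT4 became 51 after rescaling, 7 without the 2 normoxia libraries of raised Saa1, 729 with the 6 libraries alone, 1344 without the high-Saa1 libraries and 3253 with sample weights. The 102 calls at ZT12 became 25 without the filter, 1 after rescaling or with the block, 2 with sample weights, 220 and 214 with median of ratios and quantile normalization, and 0 in the other two settings that lost Clock. Rescaling moved the median difference over all genes from 0.067 to 0.10 at ZT4 and from 0.035 to 0.10 at ZT12. Calls at ZT4 split into 117 higher and 36 lower, and 72 and 82 with median of ratios. The 36 higher and 66 lower calls at ZT12 became 113 and 101 with quantile normalization. The 2648 rhythmic genes in normoxia became 4707 with sample weights and 3575 without normoxia ZT12 replicate 2. With 1 spread shared by both conditions they became 3762, and the 5273 under IH became 4166. The 18 calls of the time point test became 1342 with sample weights, 54 with quantile normalization, 37 with median of ratios, 9 with a pseudocount of 0.1, 8 with the block and 2 after rescaling, and the 86 over all time points became 54 with median of ratios and 391 with sample weights. Without the high-Saa1 libraries these became 105 and 250. The 0 phase calls became 26 with sample weights, 17 without the high-Saa1 libraries, 9 without the filter and 1 or 2 in 4 other settings. The 0 or 1 calls at the other time points became 242 at ZT8 and 29 at each of ZT16 and ZT20 with sample weights, and at most 10 in the other settings that did not leave out a single library. Sample weights gave 6 calls of the cosine test and 1 of amplitude in place of 0. With 1 library left out, the calls over all genes ran from 22 (IH ZT4 replicate 2) to 799 (normoxia ZT12 replicate 2) at ZT4, from 0 (normoxia ZT12 replicate 2) to 3122 (normoxia ZT12 replicate 3) at ZT12, from 0 to 25 (IH ZT0 replicate 3) at ZT0, from 3 (IH ZT4 replicate 2) to 670 (normoxia ZT12 replicate 3) in the time point test, from 45 (IH ZT8 replicate 2) to 203 (normoxia ZT12 replicate 2) over all time points and from 0 to 12 (IH ZT0 replicate 1) for phase, with the library left out in parentheses.

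Mice with the same replicate number at one time point were not paired by the labels, and their deviations from the group means correlated by -0.18 to 0.29, with 6 of 18 pairs above 0.1, among them all 3 at ZT12. With the replicate block, Clock at ZT12 had an adjusted p of 0.055 and Arntl at ZT4 one of 0.039. FPKM give no depth, which limits Npas2 near its low point most.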
